A study of Mus musculus with 26 samples.

Results

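The RNA of 3 murine lung cancer lines kept in the ALK inhibitor alectinib was compared between late cultures, on days 3 and 5 of drug, and early cultures, on days 1 and 2. The 12 libraries were chosen by treatment and day alone, as every alectinib library of these days, 6 early and 6 late, out of 26 in the series. The days are those of the sample titles, whereas the treatment protocol names days 1, 3, 5 and 7. Each line, EA1, EA2 and EA3, gave 1 library per day, so each line had 2 early and 2 late libraries, and no culture was sequenced in parallel on the same day. All 3 lines came from lung tumours of C57BL/6 mice in which an adenovirus carrying Cas9 and guides to Eml4 and Alk had joined the 2 genes, and all cells therefore carry the Eml4-Alk fusion and were once exposed to Cas9. The line EA2 was received from another laboratory. Cells were grown in RPMI with 10% fetal bovine serum and 100 nM alectinib, and the DMSO dishes of the same days, used here only for comparison, held 0.1% DMSO. Each line is 1 tumour-derived line, the age and sex of the mice are not used here, and a p-value over these libraries measures only the spread between these lines and days, since no source used here states whether the days of a line came from separate cultures.

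EML4-ALK is a constitutively active receptor tyrosine kinase fusion whose main outputs are the RAS-MAPK cascade, the PI3K-AKT pathway and STAT3. Alectinib occupies the ATP pocket of the kinase, so that MAPK target genes such as Dusp6 and Etv4 lose their drive, FOXO transcription factors are released from AKT and dividing cells leave the cycle. Cells that survive the first days of such a drug are known as drug-tolerant or persister cells, and cultures held in drug also age, fill their dish and use up medium, as cultures in DMSO do. Early and late here are both under drug, and the comparison asks what still changes after the first days of exposure.

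The 12 libraries held between 5780062 and 11732401 counts assigned to named genes (early 5780062 to 10478215, late 8827926 to 11732401), and the lines were plainly distinct. The correlation of log2 CPM (counts scaled to a fixed total per library) between libraries was between 0.922 and 0.989 within a line and between 0.8 and 0.89 across lines. Within each line the libraries also fell into 2 kinds. In 6 of the 12, namely EA1 days 1, 3 and 5, EA2 day 2 and EA3 days 1 and 3, the genes mt-Co2, mt-Co3 and mt-Atp6 together took between 615 and 786 CPM, against 27.4 to 47.6 CPM in the other 6. The same 6 libraries had between 0.759% and 1.21% of their counts in processed pseudogenes, against 0.202% to 0.426%, while the share of all mitochondrial genes overlapped (2.05% to 2.77% against 1.45% to 3.85%). The high kind held 3 early and 3 late libraries, but 3 of the 6 libraries were from EA1, 1 from EA2 and 2 from EA3, and what made it was not tested. A term for library kind was therefore added to the fit, as a choice made after seeing the data, and each result below names the fit it comes from. Apart from its kind, EA2 day 5 stood away from the other late libraries, lying at -26 on the second component of the line-centred values where the other 5 late libraries lay between 13.2 and 33.7. The early library EA2 day 2 lay at 17.3, among the late ones, where the other early libraries lay between -34.7 and -4.48. In EA2 this component thus did not part early from late.

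**Figure D1:**
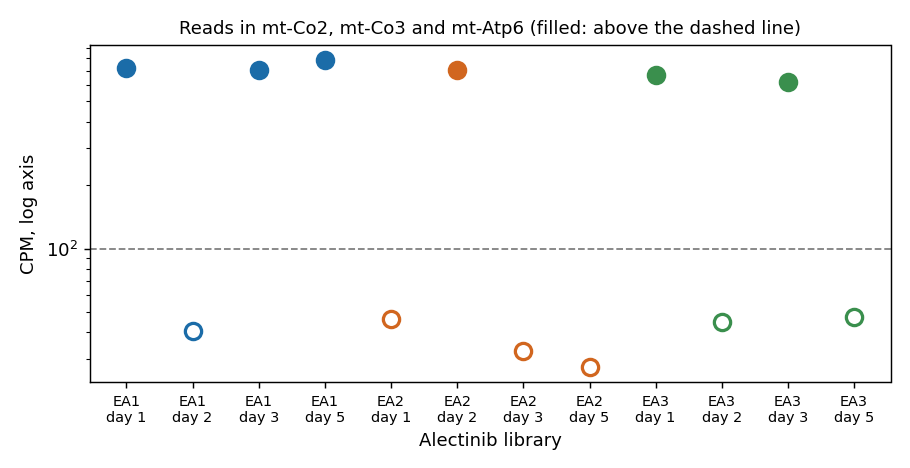
CPM summed over mt-Co2, mt-Co3 and mt-Atp6 (vertical axis, log scale) in each of the 12 alectinib libraries (horizontal axis, coloured by line), with the 100 CPM line that parts the 2 kinds. The 6 filled libraries lie between 615 and 786 CPM and the 6 open ones between 27.4 and 47.6 CPM, with early and late days in both.

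The cell type markers were read in the same libraries. Of the epithelial markers, Cdh1, Krt18 and Krt8 were present in every library (at least 147, 236 and 10.2 CPM), whereas Epcam was at 0 in the lowest library and the median of Cldn7 over the 12 libraries was 0.187 CPM. The lung factor Foxa1 stood between 114 and 189 CPM, but the lung lineage genes Nkx2-1, Sftpc, Sftpb and Napsa never exceeded 0.855 CPM. The leukocyte gene Ptprc reached at most 0.202 CPM and Cd3e and Adgre1 were at 0 throughout, and Itgam and Laptm5 reached at most 0.428 CPM. The whole list of 9 immune markers summed to between 9.62 and 20.4 CPM early and between 13.1 and 51.9 CPM late. The highest single value was that of Cd68, a lysosomal protein high in macrophages (at most 51.3 CPM), with Fcgr3 and Csf1r at most 10.8 and 7.08 CPM. These 3 were the tested members, each with a log2 fold change above 0 (median 0.74, and 1.12 without EA3 day 5), and 1 of the 3, Cd68, had an unadjusted p under 0.05 (8.04% of all genes were higher at that level). The part of these markers in the results below was not tested. Of the 4 mesothelial markers Msln was between 119 and 1101 CPM and had a log2 fold change of -0.36, adjusted p = 0.382, while Wt1 was at 0 and Upk3b and Lrrn4 never exceeded 1.35 CPM. In the same way the neuroendocrine genes Chga and Calca were at 0 in all 12 libraries.

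Across the lines, no gene passed an adjusted p of 0.05 between late and early alectinib cultures. Of 14458 genes tested by the edgeR quasi-likelihood test with line as a block, 0 (0.0%) passed, the smallest adjusted p being 0.106, shared by 5 genes with Tef and Itga11 among them. At an unadjusted p under 0.05, 1162 genes (8.04%) were higher late and 1079 (7.46%) lower, and DESeq2 on the same 12 libraries called 416, of which 273 were higher. With library kind in the model 151 genes passed, 125 of them higher late (0.865% of the genes tested) and 26 lower (0.18%), and DESeq2 with the same term called 586, among them 132 of the 151. Of those 151 genes 146 are protein-coding, 145 had the same sign within each of the 2 kinds of library, 125 had the same sign in 3 of 3 lines and 144 had an unadjusted p under 0.05 without the term. The genes were picked on the same 12 libraries, so such agreement was largely set in advance and is no separate support. In what follows, rose and fell are used only of genes that passed in the fit with library kind. For the genes so named with the lines together, the adjusted p without the term was between 0.106 and 0.276, so each of these edgeR calls depends on it, while DESeq2 without the term called 96 of the 151 genes, all with the same sign.

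The count also depended on single libraries. Without EA2 day 5 it was 1519 with library kind and 206 without the term. Leaving out one of 8 other libraries brought it, with library kind, to 21 (EA1 day 1), 13 (EA1 day 2), 26 (EA1 day 3), 11 (EA1 day 5), 68 (EA2 day 3), 40 (EA3 day 1), 25 (EA3 day 2) and 32 (EA3 day 5). All 151 genes kept their sign in each of the 12 omissions, which share most libraries with the full fit that picked them. Without the term, the count was 11 when EA3 day 3 was left out, 6 without EA1 day 2 and 0 in each of the 9 other omissions. Leaving out a whole line gave 0 calls without EA1, 1870 without EA2 and 5 without EA3, in each case with library kind. In the whole table, both late libraries lay above both early ones in 3 of 3 lines for 238 genes (1.65%) and below for 336 (2.32%). Among the called genes this held for 55 of the 125 that rose and for 22 of the 26 that fell.

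Plin4, Pcx, Ucp2 and Cd36 were among the genes that rose. Plin4 (chr17:56100591-56109803, GRCm38, as are the positions given below), which coats lipid droplets, was at 101 and 185 CPM early and 330 and 328 CPM late in EA1. In EA2 it went from 15.7 and 13.1 to 61.4 and 40.7 CPM, and in EA3 from 30.1 and 36.7 to 54.7 and 165 CPM. Both late libraries exceeded both early ones in every line, although the pooled groups overlapped because EA1 began higher than EA2 ended. Its log2 fold change was 1.56 ± 0.17 (SE), adjusted p = 0.00404 with library kind and 1.57 ± 0.26 (SE), adjusted p = 0.124 without. Pcx (chr19:4510472-4621752), the mitochondrial pyruvate carboxylase that refills the citric acid cycle, went from 11.8 and 21.7 to 36.9 and 40.3 CPM in EA1, from 5.97 and 5.83 to 26.6 and 10.7 CPM in EA2 and from 5.63 and 11.6 to 19.7 and 35.3 CPM in EA3. Late exceeded early in each line, by a log2 fold change of 1.55 ± 0.21 (SE), adjusted p = 0.0117. Ucp2, an inner-membrane carrier of mitochondria, rose with a log2 fold change of 1.41 ± 0.20 (SE), adjusted p = 0.0122, from 34.6 and 64.9 to 83 and 107 CPM in EA1 and from 17 and 18.3 to 55.2 and 81.8 CPM in EA3. In EA2 it stayed between 1.24 and 2.13 CPM. Cd36, the fatty acid uptake receptor, was the lowest of these genes, at most 1.54 CPM in EA1 and 1.45 CPM in EA2, with 7.86 CPM on day 3 and 119 CPM on day 5 in EA3. It was at 0 in both early EA2 libraries, so its fitted fold change depends on the prior count, and the adjusted p was 0.0112. Plin4 and Cd36 were the 2 called members, both higher, of the 24 tested genes of fatty acid synthesis and handling (0.865% of all genes were called higher). Without library kind 5 of the 24 were higher and 2 lower at an unadjusted p under 0.05 (8.04% and 7.46% of all genes). Their median log2 fold change was 0.07 against -0.01 for all genes tested, and it was between 0.02 (without EA1 day 1) and 0.15 (without EA3 day 1) when 1 library was left out.

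Members of the collagen and matrix list rose too. Among 30 tested collagen and matrix genes, 17 were higher and 1 lower at an unadjusted p under 0.05 without library kind (8.04% and 7.46% of all genes tested), 4 rose with the term (0.865% of all genes) and the median log2 fold change was 0.78. Col5a1 (chr2:27886425-28039514), a fibrillar collagen chain that sets fibril width, was at 250 and 456 CPM early and 572 and 599.5 CPM late in EA1. It was at 212 and 110.2 and then 292 and 289 CPM in EA2, and at 156 and 182 and then 264 and 278 CPM in EA3. The late libraries were the higher ones in each line and its log2 fold change was 0.79 ± 0.13 (SE), adjusted p = 0.0186. Col12a1, a fibril-associated collagen, rose by 1.00 ± 0.20 (SE), adjusted p = 0.0481, from 449 and 722 to 1047 and 1035 CPM in EA1 and with a single high value of 155 CPM on day 5 in EA3. Loxl1, which cross-links elastin and collagen, rose in the pooled fit (log2 fold change 1.41, adjusted p = 0.0495), but in EA2 its 4 values lay between 0.335 and 0.708 CPM and the late ones were not above the early ones. The fourth, Postn, a matrix protein of wounds and bone, was read at 12.9 CPM in EA3 day 5, at 1.11 CPM in EA1 day 5 and at 0 in 6 of the 12 libraries, so no fold change is given for it.

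Itga11 (chr9:62677826-62783982), the alpha chain of a collagen-binding integrin, was one of the 5 genes that shared the smallest adjusted p without library kind. It was at 10.8 and 22 CPM early and 55 and 63.1 CPM late in EA1. EA2 had 3.44 and 5.83 and then 40.8 and 50.9 CPM, and EA3 1.43 and 3.04 and then 11.5 and 4.65 CPM. Both late values were above both early ones in 3 of 3 lines, with a log2 fold change of 2.40 ± 0.34 (SE), adjusted p = 0.0123 with library kind and 2.35 ± 0.35 (SE), adjusted p = 0.106 without. The small proteoglycans Fmod and Prelp, which bind collagen, had the largest rises with library kind among protein-coding genes with a mean log2 CPM of at least 3 and the same sign in 3 of 3 lines. Fmod (chr1:134037254-134048277) was at 5.95 and 38.8 CPM early and 132 and 311 CPM late in EA1. The EA2 values were 0.809 and 5.30 and then 71.1 and 147 CPM, those of EA3 3.15 and 12.1 and then 10.3 and 124 CPM. In EA3 day 3 it was thus below day 2, and its log2 fold change was 3.93 ± 0.64 (SE), adjusted p = 0.0267. Prelp behaved alike in EA3, with 8.11 CPM on day 2, 2.04 CPM on day 3 and 161 CPM on day 5, and its log2 fold change was 3.40 ± 0.63 (SE), adjusted p = 0.0456.

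The secreted proteins Pappa2, Fstl1, Hgf and Mmp2 rose as well. Pappa2, a protease that frees insulin-like growth factors from their binding proteins, went from 29.2 and 142 CPM to 307 and 416 CPM in EA1, from 0.303 and 1.24 to 7.62 and 6.48 CPM in EA2 and from 0 and 0.789 to 5.24 and 5.31 CPM in EA3. The order was the same in each line, while the level in EA1 was far above that in the other lines, and the log2 fold change was 3.15 ± 0.43 (SE), adjusted p = 0.0121. Fstl1, a follistatin-like glycoprotein that modulates BMP signalling, was at 246 and 367 CPM early and 489 and 639 CPM late in EA1 and at 6.96 and 19.5 and then 34.3 and 135 CPM in EA3. EA2 held at most 2.23 CPM of it, and its log2 fold change was 1.91 ± 0.30 (SE), adjusted p = 0.0254. Hgf, the ligand of the MET receptor, rose by 2.54 ± 0.45 (SE), adjusted p = 0.0321, chiefly from 1.88 and 7.76 CPM to 16.2 and 26.2 CPM in EA1, while no library of EA2 or EA3 exceeded 2.43 CPM. It was the only called member of the 31 tested receptor tyrosine kinases and their ligands (0.865% of all genes were called higher). Of the 31, 8 were higher and 1 lower at an unadjusted p under 0.05 without library kind (8.04% and 7.46% of all genes). Mmp2, a gelatinase, rose in the pooled fit (log2 fold change 2.18, adjusted p = 0.0117, against 1.74, adjusted p = 0.139 without library kind) on values of 12.9 and 37.4 CPM early and 60.3 and 83.8 CPM late in EA1, with at most 4.32 CPM in EA3 and 0.101 CPM in EA2. Igfbp2 and Des, a binding protein of insulin-like growth factors and a muscle intermediate filament, also passed on very low counts outside EA1, where Igfbp2 went from 0.198 and 5.72 to 18.4 and 54.5 CPM and Des from 0.297 and 1.14 to 3.17 and 4.11 CPM. For Pappa2, Fstl1, Hgf, Mmp2 and Igfbp2 the values come mainly from EA1. There day 2 is the only library of the low kind, so that the term takes up much of day 2. Without the term the log2 fold changes were 2.62 for Pappa2 (adjusted p = 0.124) and 1.68 for Fstl1 (adjusted p = 0.186). They were 2.19 for Hgf and 3.78 for Igfbp2 (adjusted p = 0.155 for each).

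Fibroblast marker genes had a higher median late, beside these matrix genes. Of 8 such markers 6 were tested, 4 were higher and 0 lower at an unadjusted p under 0.05 without library kind (8.04% and 7.46% of all genes), and none passed the adjusted threshold with or without the term. Their median log2 fold change was 1.48 (EA1 2.04, EA2 0.20 and EA3 2.90). Their summed level ranged from 87.5 to 246 CPM early (median 136) and from 125 to 488 CPM late (median 218), and without EA3 day 5 the median log2 fold change was 0.98. Of the defining markers, Pdgfra never exceeded 3.76 CPM, Thy1 0.224 CPM and Lum 3.51 CPM, whereas Pdgfrb reached 154 CPM and Dcn 168 CPM. In these bulk libraries more cells of a type and more RNA per cell cannot be told apart, and the part of the markers in the matrix result was not tested. The 7 epithelial markers went the other way, with 0 higher and 3 lower at the same unadjusted p and a median log2 fold change of -0.81 (-0.33 without EA3 day 5), and none passed the adjusted threshold.

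Genes of the circadian clock were higher late, as a group, in every line. The clock is a feedback loop in which the CLOCK and ARNTL proteins drive Per and Cry genes through E-box elements, PER and CRY proteins in turn block CLOCK and ARNTL, and the factors Dbp and Tef pass the rhythm on to further genes. Of 17 tested clock genes, 12 were higher and 0 lower at an unadjusted p under 0.05 without library kind (8.04% and 7.46% of all genes tested), 16 had a log2 fold change above 0 and the median was 0.73 (-0.01 for all genes), while the medians of EA1, EA2 and EA3 were 0.74, 0.62 and 0.50. With library kind, 2 of them rose, Per1 and Tef (0.865% of all genes were called higher). The median of the 17 genes, on a log2 CPM scale centred per line, lay between -0.409 and -0.208 in the 6 early libraries and between 0.0704 and 0.596 in the 6 late ones, without overlap, with the lowest late value in EA2 day 5. Such separation was not particular to the clock. It was also seen for heat shock (0.0772 to 0.161 early, -0.278 to 0.0572 late). Matrix proteases and inhibitors (-0.268 to -0.00553, then 0.0669 to 0.167) and mesenchymal transition (-0.286 to 0.00192, then 0.0259 to 0.256) had it too. Hours of harvest are not given in the sources used here, so the phase of any rhythm at sampling is unknown.

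Tef (chr15:81802421-81826863) was at 72.9 and 75.8 CPM early and 113 and 136 CPM late in EA1. It moved from 56.1 and 55.6 to 85.3 and 75 CPM in EA2 and from 45.6 and 53.6 to 71.1 and 94.7 CPM in EA3. The late libraries were higher in each line, by a log2 fold change of 0.67 ± 0.10 (SE), adjusted p = 0.0138 with library kind and 0.67 ± 0.10 (SE), adjusted p = 0.106 without. Per1 (chr11:69095217-69109960), part of the repressor arm of the loop, was at 20.5 and 22.1 CPM early and 38.8 and 42.3 CPM late in EA1. For EA2 the values were 45.7 and 41.9 early and 99.1 and 53.5 CPM late, and for EA3 20.2 and 22.6 early and 30.9 and 28.4 CPM late. It was again higher late in 3 of 3 lines, with EA2 day 5 close to its early values, and its log2 fold change was 0.73 ± 0.15 (SE), adjusted p = 0.0481. Among the other members, none of which passed the adjusted threshold, the repressor Nr1d1 had a log2 fold change without library kind of 0.92 ± 0.22 (SE, adjusted p = 0.158), Per2 of 1.29 ± 0.39 (adjusted p = 0.194) and Dbp of 1.13 ± 0.35 (adjusted p = 0.212). Arntl, the partner of CLOCK in the activating arm, had -0.0036 ± 0.16 (adjusted p = 0.995).

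The promoters of Per1 and Tef, the clock genes that rose, are shown because the E-box is the element of this loop. The sequences are those of RefSeq on GRCm38.p6, from 250 bases before to 50 bases after the RefSeq gene start, written 5′ to 3′ on the gene's strand, with the E-box CACGTG in capitals. The windows are chr11:69098699-69098998 on the plus strand for Per1, chr15:81802423-81802722 on the plus strand for Tef and chr3:95882179-95882478 on the minus strand for Ciart, a repressor of the loop that did not pass the adjusted threshold and is shown for its 3 copies.
Per1: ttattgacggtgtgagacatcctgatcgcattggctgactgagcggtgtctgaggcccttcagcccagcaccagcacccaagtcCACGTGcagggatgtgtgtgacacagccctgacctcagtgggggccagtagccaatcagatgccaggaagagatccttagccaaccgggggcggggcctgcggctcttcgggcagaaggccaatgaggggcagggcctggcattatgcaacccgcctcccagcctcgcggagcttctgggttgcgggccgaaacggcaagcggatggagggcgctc
Tef: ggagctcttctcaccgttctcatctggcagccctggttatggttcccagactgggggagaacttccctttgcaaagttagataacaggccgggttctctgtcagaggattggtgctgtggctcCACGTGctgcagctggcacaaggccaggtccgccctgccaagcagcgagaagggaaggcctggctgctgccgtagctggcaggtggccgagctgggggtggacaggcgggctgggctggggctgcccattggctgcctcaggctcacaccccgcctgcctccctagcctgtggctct
Ciart: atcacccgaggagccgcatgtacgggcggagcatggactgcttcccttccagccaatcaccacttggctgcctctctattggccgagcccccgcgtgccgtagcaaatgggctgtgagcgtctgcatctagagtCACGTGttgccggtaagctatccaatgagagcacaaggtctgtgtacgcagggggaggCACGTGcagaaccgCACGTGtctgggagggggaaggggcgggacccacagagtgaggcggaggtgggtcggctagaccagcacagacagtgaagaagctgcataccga
The E-box, which reads the same on both strands, was in 5 of the 16 clock gene promoters found in the RefSeq table (31.2%), and in 2349 of all 32851 promoters of the same length (7.15%). The D-box, searched as TTATGTAA and TTACATAA, each the reverse complement of the other and neither overlapping the E-box, was in 1 of the 16 (6.25%) and in 308 of all promoters (0.938%). These matches describe letters in the windows and were not tested as binding sites.

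Foxo1, Tsc22d3, Dram1, Zeb2, Dclk1 and Sema3d also rose. Foxo1, a transcription factor held in the cytoplasm by AKT, had between 35.3 and 72.5 CPM early (median 45.7) and between 46.5 and 97.1 CPM late (median 83). The groups overlapped, but both late libraries were higher in 3 of 3 lines, and the log2 fold change was 0.67 ± 0.14 (SE), adjusted p = 0.0492. Tsc22d3, a glucocorticoid and FOXO responsive gene also known as Gilz, had between 15.7 and 49.99 CPM early (median 36.8) and between 24.7 and 76.5 CPM late (median 58), with a log2 fold change of 0.62 ± 0.13 (SE), adjusted p = 0.0492 and late above early in each line. They were the 2 called members of 23 tested genes of the FOXO and PI3K-off list (0.865% of all genes were called higher). Of the 23, 3 were higher and 0 lower at an unadjusted p under 0.05 without library kind (8.04% and 7.46% of all genes), with a median of 0.23 (0.09 without EA2 day 3). Dram1, a lysosomal membrane protein that promotes autophagy, was at 20.2 and 37.3 CPM early and 49.6 and 40.6 CPM late in EA1. In EA2 it went from 1.82 and 1.94 to 10.8 and 5.59 CPM, and in EA3 from 2.96 and 9.35 to 10.3 and 44.8 CPM. Late exceeded early in each line and the log2 fold change was 1.67 ± 0.25 (SE), adjusted p = 0.0143. Zeb2, a repressor of epithelial genes, rose by 0.57 ± 0.11 (SE), adjusted p = 0.0481, from 32.7 and 48.1 to 64.7 and 81.8 CPM in EA3, where the change was greatest, and it was the called member of 15 tested genes of mesenchymal transition (4 higher and 0 lower at an unadjusted p under 0.05 without library kind, beside the same shares of all genes). The median of that list was 0.27, and 0.17 without EA1 day 1. The kinase Dclk1, a marker of tuft cells, rose by 1.57 ± 0.29 (SE), adjusted p = 0.0422, although in EA3 day 3 (35.8 CPM) it was slightly below day 2 (37.1 CPM), and the secreted guidance protein Sema3d by 1.52 ± 0.29 (SE), adjusted p = 0.0407.

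Cxcl15 and Tap2 rose too. Cxcl15, a chemokine of lung epithelium, was at 27.4 and 89.9 CPM early and 173 and 209 CPM late in EA1 and at 2.29 and 8.23 and then 15.6 and 144 CPM in EA3. In EA2 it stayed at or below 4.15 CPM, with day 5 under both early days, and the pooled log2 fold change was 2.93 ± 0.47 (SE), adjusted p = 0.0267. Cxcl15 was the called member of 27 tested chemokine and cytokine genes (0.865% of all genes were called higher). Of the 27, 4 were higher and 2 lower at an unadjusted p under 0.05 without library kind (8.04% and 7.46% of all genes). Their median of 0.34 was 0.19 without EA3 day 1, 0.20 without EA3 day 3 and 0.21 without EA3 day 5. Of 15 tested complement genes 5 were higher and 0 lower at the same unadjusted p, with a median of 0.88, and without EA3 day 5 that median was 0.16. Tap2, a subunit of the transporter that loads peptides onto MHC class I, had between 0.530 and 5.09 CPM early (median 1.07) and between 1.90 and 9.75 CPM late (median 4.56), with late above early in each line and a log2 fold change of 1.67 ± 0.25 (SE), adjusted p = 0.0122. 14.1% of its exonic length is overlapped by Gm15821 on the other strand. The other 16 tested genes of MHC class I presentation did not pass, the list holding 4 higher and 3 lower members at an unadjusted p under 0.05 without library kind and a median of 0.04. With 1 library left out that median was between -0.07 and 0.12, and it was below 0 in 3 of the 12 omissions (EA2 day 3, EA3 day 1 and EA3 day 5).

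**Figure D2:**
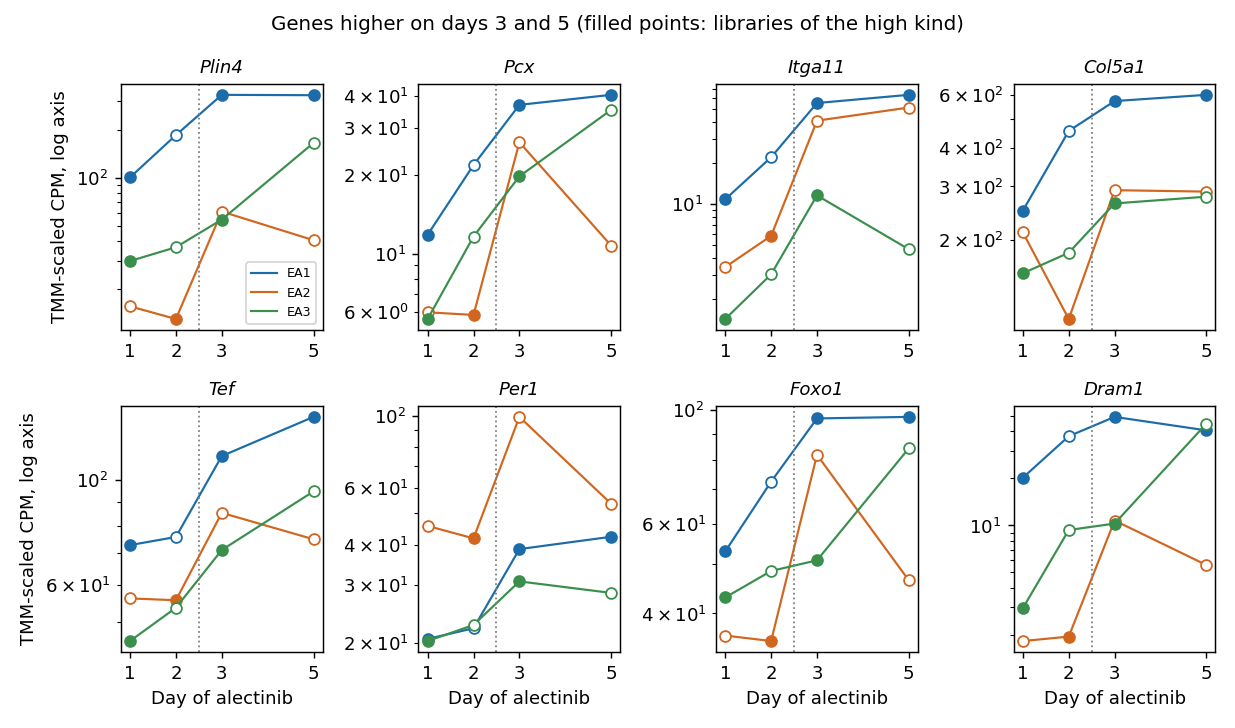
TMM-scaled CPM (vertical axes, log scale) against day of alectinib (horizontal axes) for 8 genes that rose in the fit with library kind, 1 point per library, coloured by line and filled for the high kind of library. In all 8 genes both late points lie above both early points of the same line, and EA2 day 5 falls back towards the early values of EA2 in Pcx, Per1, Foxo1 and Dram1.

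The 26 genes that fell included Cdk4, Stmn1, Tead2 and Aven. Cdk4 (chr10:127063534-127067920), the kinase that carries cells from G1 into S phase with cyclin D, had between 360 and 468 CPM early (median 382) and between 211 and 331 CPM late (median 260). The lowest early library was above the highest late one, so the groups did not overlap, and the log2 fold change was -0.58 ± 0.11 (SE), adjusted p = 0.0407 with library kind and -0.59 ± 0.11 (SE), adjusted p = 0.124 without. 19.7% of its exonic length is overlapped by Tspan31 on the other strand. Stmn1, a destabiliser of microtubules that is high in dividing cells, was at 299.9 and 265 CPM early and 175 and 176 CPM late in EA1. EA2 had 195 and 244 and then 63.8 and 153 CPM, and EA3 144 and 151 and then 69.1 and 86 CPM. Late was below early in each line, with the lowest value on day 3 in EA2, where day 5 was again higher, and the log2 fold change was -0.87 ± 0.18 (SE), adjusted p = 0.0481. Tead2, a DNA-binding partner of YAP, had between 178 and 265 CPM early (median 205) and between 117 and 178 CPM late (median 139), a log2 fold change of -0.55 ± 0.10 (SE), adjusted p = 0.0321 and late below early in each line. Aven (chr2:112492964-112634573), an inhibitor of apoptosis that binds APAF1, had between 13.7 and 23 CPM early (median 18.5) and between 6.86 and 13 CPM late (median 9.23). As for Cdk4 the groups did not overlap, the log2 fold change was -0.96 ± 0.15 (SE), adjusted p = 0.0176, and 18.3% of its exonic length is overlapped by Ryr3 on the other strand. The same genes were read in the DMSO dishes, late against early and without library kind. Their log2 fold changes there were -0.60 for Cdk4, -1.415 for Stmn1, -0.14 for Tead2 and -1.51 for Aven. Cdk4, Stmn1 and Aven were thus lower late by as much or more without drug.

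Lad1, Mal2, Marcksl1, F2rl1, Tuba4a, Gsto1, Pafah1b3 and Dnph1 fell as well. Lad1, an anchoring-filament protein of basement membranes, was at 189.7 and 131 CPM early and 112 and 102 CPM late in EA1 and at 256 and 202 and then 159 and 61.3 CPM in EA3, and between 0.112 and 0.405 CPM in EA2. Its log2 fold change was -1.03 ± 0.17 (SE), adjusted p = 0.0257. Mal2, which carries proteins to the apical membrane, fell by 0.63 ± 0.13 (SE), adjusted p = 0.0481, and Marcksl1, which tethers actin to the membrane, fell by 0.67 ± 0.13 (SE), adjusted p = 0.0422, in both cases with late below early in 3 of 3 lines. F2rl1, the receptor for trypsin-like proteases, fell by 0.71 ± 0.12 (SE), adjusted p = 0.03, and Tuba4a, an alpha tubulin whose exons overlap Stk16 on the other strand over 37.3% of their length, fell by 0.60 ± 0.12 (SE), adjusted p = 0.0481. Gsto1, a glutathione transferase, had between 279 and 552 CPM early (median 347) and between 181 and 340 CPM late (median 249), and its log2 fold change was -0.58 ± 0.11 (SE), adjusted p = 0.0467. The other enzymes were Pafah1b3, a catalytic subunit of platelet-activating factor acetylhydrolase (log2 fold change -0.55, adjusted p = 0.0481), and Dnph1, which hydrolyses modified deoxynucleotides (log2 fold change -0.81, adjusted p = 0.0336). In DMSO, without library kind, the values were -1.47 for Dnph1, -1.08 for Marcksl1, -0.88 for Tuba4a, -0.32 for Mal2 and -0.01 for Lad1. They were above 0 for F2rl1 (0.17), Gsto1 (0.17) and Pafah1b3 (0.15).

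**Figure D3:**
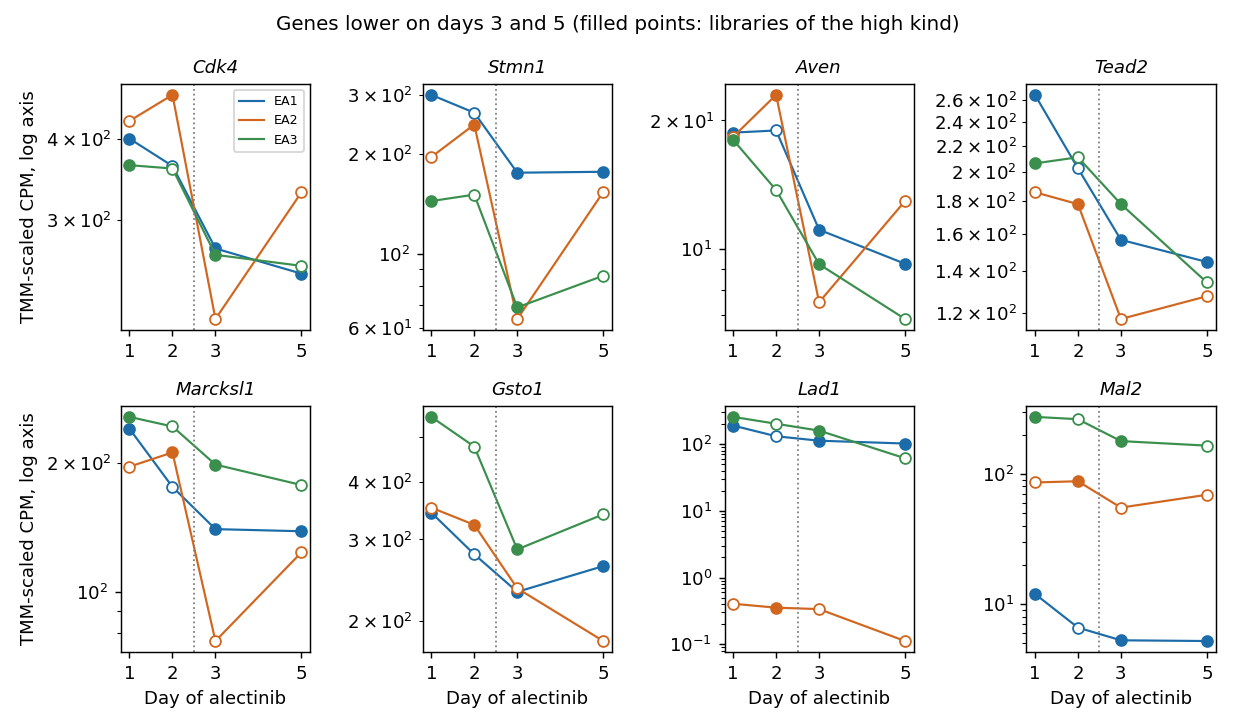
TMM-scaled CPM (vertical axes, log scale) against day of alectinib (horizontal axes) for 8 genes that fell in the fit with library kind, 1 point per library, coloured by line and filled for the high kind of library. The late points lie below the early points of their line in all 8, and EA2 rises again from day 3 to day 5 in Cdk4, Stmn1, Aven, Tead2, Marcksl1 and Mal2.

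Genes of DNA replication and mitosis had medians below 0, and no single gene of either list was called. All 28 tested genes of DNA replication had a log2 fold change below 0, with a median of -0.40, as did all 24 tested genes of mitosis, with a median of -0.52 (-0.01 for all genes). Of the first list 0 were higher and 5 lower at an unadjusted p under 0.05 without library kind, and of the second 0 and 1 (4.17% lower), beside 8.04% and 7.46% of all genes. Mcm6, a subunit of the replicative helicase, had between 122 and 284 CPM early (median 156) and between 76.6 and 272 CPM late (median 91.6) and a log2 fold change of -0.65 ± 0.20 (SE), adjusted p = 0.214 without library kind. Kif23, a kinesin of cytokinesis, had -0.73 ± 0.29 (SE), adjusted p = 0.279. The 2 late libraries of EA2 lay at opposite ends. The line-centred median of the replication list was -1.12 in EA2 day 3 and 0.511 in EA2 day 5, the lowest and highest of the 12 libraries, and that of the mitosis list -1.52 and 0.738. Without EA2 day 5 the median log2 fold changes were -0.61 and -0.83, and without EA2 day 3 they were -0.25 and -0.32.

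Ribosome biogenesis and heat shock genes had medians below 0 as well. Of 22 tested genes of ribosome biogenesis, all 22 had a log2 fold change below 0, 10 had an unadjusted p under 0.05 (7.46% of all genes were lower at that level), and the median was -0.33. Npm1, a nucleolar chaperone, had -0.42 ± 0.09 (SE), adjusted p = 0.139 and was lower late in 3 of 3 lines. Of 17 tested heat shock genes 12 had a log2 fold change below 0 and 5 above. At an unadjusted p under 0.05, 0 were higher and 8 lower (8.04% and 7.46% of all genes), and the median was -0.28 (-0.19 without EA2 day 3). Hsp90ab1, the constitutive HSP90, had similar values in each line (-0.31, -0.31 and -0.33 in EA1, EA2 and EA3), with a pooled log2 fold change of -0.32 ± 0.08 (SE), adjusted p = 0.176. No member of these lists passed the adjusted threshold in either fit.

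**Figure D4:**
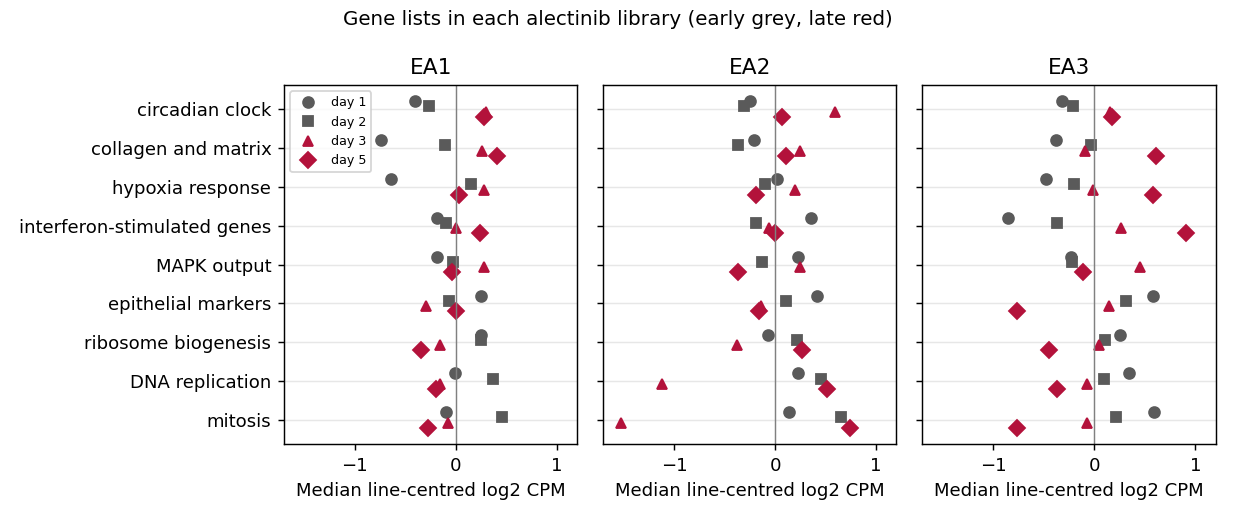
Median over the tested members of 9 gene lists of the log2 CPM centred within each line (horizontal axes, log2 units), in 1 panel per line, with grey symbols for early and red for late libraries and a shape for each day. The circadian clock list has all late symbols to the right of all early ones, whereas in EA2 the DNA replication and mitosis lists span from day 3 at the left to day 5 at the right.

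The MAPK targets that report on ALK signalling showed no common direction between late and early drug. Dusp6, the ERK phosphatase, was at 30.7 and 34.6 CPM early and 60.4 and 29.9 CPM late in EA1. The EA2 values were 15.8 and 11.1 and then 8.07 and 6.59 CPM, those of EA3 18.9 and 23.3 and then 50.6 and 22.1 CPM. In EA1 and EA3 day 3 was the highest day and day 5 was near the early values, while in EA2 both late days were below the early ones, and the pooled log2 fold change was 0.17 ± 0.31 (SE), adjusted p = 0.839. The ETS factors Etv4 (0.21 ± 0.47 SE, adjusted p = 0.873) and Etv5 (0.29 ± 0.49 SE, adjusted p = 0.824) and the AP-1 subunit Fosl1 (0.47 ± 0.45 SE, adjusted p = 0.654) likewise did not pass, with per-line log2 fold changes of -0.23, 0.21 and 0.64 for Etv4, -0.27, -0.84 and 1.87 for Etv5 and 1.17, -1.26 and 1.46 for Fosl1 in EA1, EA2 and EA3. Etv4 was highest in EA3 day 3, at 15.9 CPM, and lowest in EA2 day 2, at 0.353 CPM, and 57.2% of the exonic length of Fosl1 is overlapped by Ccdc85b on the other strand. Over 21 tested genes of MAPK output 3 were higher and 1 lower at an unadjusted p under 0.05 (8.04% and 7.46% of all genes), 18 were above 0 and the median was 0.22, with EA1 0.32, EA2 -0.06 and EA3 0.56. It was 0.36 without EA1 day 2, 0.46 without EA2 day 1 and 0.40 without EA2 day 5. Spry1, a feedback inhibitor of the pathway, had the smallest p of the list, with 1.05 ± 0.30 (SE), adjusted p = 0.186. 24.4% of its exonic length is overlapped by Gm42922 on the other strand.

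The chemokine genes whose proteins the study measured did not pass the adjusted threshold in either fit. Cxcl1, which attracts neutrophils, was at 153 and 179 CPM early and 261 and 269 CPM late in EA1 and at 69.9 and 115 and then 185 and 259.9 CPM in EA3, but at 190.1 and 187 and then 298 and 121 CPM in EA2. Its pooled log2 fold change was 0.70 ± 0.24 (SE), adjusted p = 0.234, and EA2 day 5 was the lowest library of that line. Cxcl5, of the same family, was at 38.2 and 43.9 CPM early and 81.7 and 133 CPM late in EA1, at 1289 and 1039 and then 1041 and 569.7 CPM in EA2, and at 568 and 795 and then 859 and 1432 CPM in EA3. It was higher late in EA1 and EA3 and not in EA2, with a pooled log2 fold change of 0.53 ± 0.32 (SE), adjusted p = 0.445. Ccl2, the monocyte attractant, had 0.42 ± 0.37 (SE), adjusted p = 0.624, Ccl5, which attracts T cells, 0.98 ± 0.68 (SE), adjusted p = 0.514, and Cxcl10, the interferon-induced ligand of CXCR3, -0.52 ± 0.43 (SE), adjusted p = 0.594. The last 2 were low, at most 6.84 CPM for Ccl5 and 8.11 CPM for Cxcl10. Of 26 tested interferon-stimulated genes 7 were higher and 0 lower at an unadjusted p under 0.05 without library kind (8.04% and 7.46% of all genes), 25 were above 0 and the median was 0.73. The per-line medians were EA1 0.27, EA2 -0.13 and EA3 1.36. Bst2, which tethers virions to the membrane, had 0.90 ± 0.23 (SE), adjusted p = 0.176, with 12.2 and 24.7 CPM early and 47.8 and 55.2 CPM late in EA3. No member passed the adjusted threshold.

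Within single lines, with 2 late against 2 early libraries and the spread shared over the lines, edgeR called 0 genes (0.0%) in EA1, EA2 and EA3. At an unadjusted p under 0.05 there were 671, 1660 and 1349 genes, and DESeq2 called 14, 384 and 128. With library kind 2 genes rose in EA1 (0.0138%), none in EA2 (0.0%, with 1698 genes at an unadjusted p under 0.05), and 3 changed in EA3 (0.0207%), while DESeq2 was not run with the term for single lines. The EA1 genes were Alpl, an alkaline phosphatase of bone and liver, and Igfbp5, another binding protein of insulin-like growth factors. Alpl was at 41.8 and 333 CPM early and 586 and 872 CPM late in EA1, with a log2 fold change of 1.96 ± 1.32 (SE), adjusted p = 0.923 without library kind. Igfbp5 was at 10.9 and 68.8 and then 118 and 143 CPM and at or near 0 in EA2 and EA3, with a log2 fold change of 1.72 ± 0.72 (SE), adjusted p = 0.923 without library kind. In both genes day 1, of the high kind, was far below day 2, the only EA1 library of the low kind. Both had most of their counts in EA1, so the term takes up day 2 and the early value behind both calls (adjusted p = 0.0229 for each) is in the main day 1. No fold change with library kind is therefore given for either gene. The EA3 genes were Ucp2 (1.92 ± 0.22, adjusted p = 0.0321), the interferon-induced Ifi27 (2.35 ± 0.26, adjusted p = 0.0309), and Lrp2 (-2.26 ± 0.23, adjusted p = 0.0283), the endocytic receptor megalin. Fitted without the term, they had EA3 log2 fold changes of 1.96, 2.35 and -2.29. None passed there (adjusted p = 0.259, 0.115 and 0.0991). Leaving out one library moved the EA2 count without the term from 0 to 413 (EA2 day 5) and the EA3 count from 0 to 70 (EA3 day 3).

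Whether the late change differed between the lines was tested in the same fit with 2 degrees of freedom. No gene passed (0.0%), with 878 at an unadjusted p under 0.05 and 117 called by DESeq2, and with library kind Lrp2 passed (0.00692% of the genes tested, adjusted p = 0.0297). Lrp2 went from 173 and 119 CPM to 29.98 and 29.99 CPM in EA3 and from 1.11 and 1.77 to 5.83 and 6.14 CPM in EA2, in opposite directions, and reached at most 0.254 CPM in EA1. Ifitm3, an interferon-induced block to virus entry (adjusted p = 0.353 without library kind), went the opposite way, lower late in EA2 and higher in EA3, at 122 and 73.5 CPM early and 51.6 and 28 CPM late in EA2 against 3.34 and 3.27 and then 14.7 and 15.7 CPM in EA3. Id2, an inhibitor of bHLH factors (adjusted p = 0.285), was at 77.5 and 88.1 and then 39.6 and 39.2 CPM in EA2 and at 60.8 and 74.4 and then 105 and 106 CPM in EA3, with no clear change in EA1 (220.3 and 255 and then 241 and 232 CPM). Ifi27 (adjusted p = 0.358), Eef2k, the kinase that slows translation elongation (adjusted p = 0.507), the microtubule protein Map2 (adjusted p = 0.507) and the annexin Anxa8 (adjusted p = 0.507) had the next smallest p-values, with log2 fold changes in EA1, EA2 and EA3 of 0.13, -0.59 and 2.35 for Ifi27, -0.02, 0.47 and -0.82 for Eef2k, 0.59, 1.64 and -0.11 for Map2 and -0.23, 0.47 and -1.41 for Anxa8.

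The DMSO dishes of the same lines and days give the change with time in culture without drug, and the difference of the 2 changes was tested over 24 libraries with line and day as a block. Of 15203 genes 1 passed (0.00658%), Dusp5, and with library kind 7 did (0.046%), while 2246 had an unadjusted p under 0.05 without the term and DESeq2 called 511. Of the DMSO libraries 2 of 12 were of the high kind, and the CPM values here were scaled over the 24 libraries. Dusp5, a nuclear phosphatase that inactivates ERK, stayed low in alectinib, at 8.13, 5.89, 4.13 and 3.75 CPM on days 1, 2, 3 and 5 in EA1, 8.28, 7.43, 6.44 and 3.61 CPM in EA2 and 16.1, 11, 13.2 and 6.90 CPM in EA3. In DMSO it was at 16.6, 17, 75.5 and 80.2 CPM in EA1, 39.5, 44.2, 132 and 49.6 CPM in EA2 and 60.3, 68.7, 158 and 137 CPM in EA3. Thus it was higher on both late days than on both early days in DMSO in 3 of 3 lines and not in alectinib, and the difference of the log2 fold changes was -2.11 ± 0.27 (SE), adjusted p = 0.0398. 22.1% of its exonic length is overlapped by AC137853.2 on the other strand. Leaving out EA1 day 1, 3 or 5, EA2 day 1, or EA3 day 1 or 5 of alectinib, or the DMSO library of the same line and day, took this call away. The count was between 3 and 6 without EA1 day 2, EA2 day 2, EA2 day 3 or EA3 day 3 of either treatment.

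With library kind the differences in Sprr1a, Krt19, Pip5k1b and Castor2 were below 0 as well, and the seventh gene has a clone symbol that the naming rule leaves out. Krt19, a keratin of simple epithelia, was at 2012, 1363, 700.1 and 707 CPM on days 1, 2, 3 and 5 of alectinib in EA3 and at 755, 1237, 1532 and 2473 CPM in DMSO, with a difference over the 3 lines of -1.72 ± 0.27 (SE), adjusted p = 0.0496. Early and late thus ran in opposite directions in drug and in DMSO in EA3 and also in EA2 (306, 255, 124 and 114 against 214, 282, 380.1 and 373 CPM). Sprr1a, a cornified envelope protein induced in stressed epithelium, had DMSO values of 32.9, 73, 485 and 696 CPM in EA3 against 448, 599, 649 and 494 CPM in alectinib, and a difference of -2.63 ± 0.36 (SE), adjusted p = 0.034. Pip5k1b, which makes the phosphoinositide that PI3K uses, had a difference of -1.33 ± 0.21 (SE), adjusted p = 0.0496, and Castor2, a relative of the arginine sensor of mTORC1, one of -0.95 ± 0.15 (SE), adjusted p = 0.0496. In the other direction Pdgfrb, a PDGF receptor, had a difference of 3.45 ± 0.45 (SE), adjusted p = 0.034. It lay under the expression minimum of the naming rule, was named after its values were seen, and, scaled over the 12 alectinib libraries, had 69.4 and 96.7 CPM early and 130.3 and 154 CPM late in EA1 but at most 6.86 CPM in the other lines. None of these 5 genes passed without the term for library kind.

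**Figure D5:**
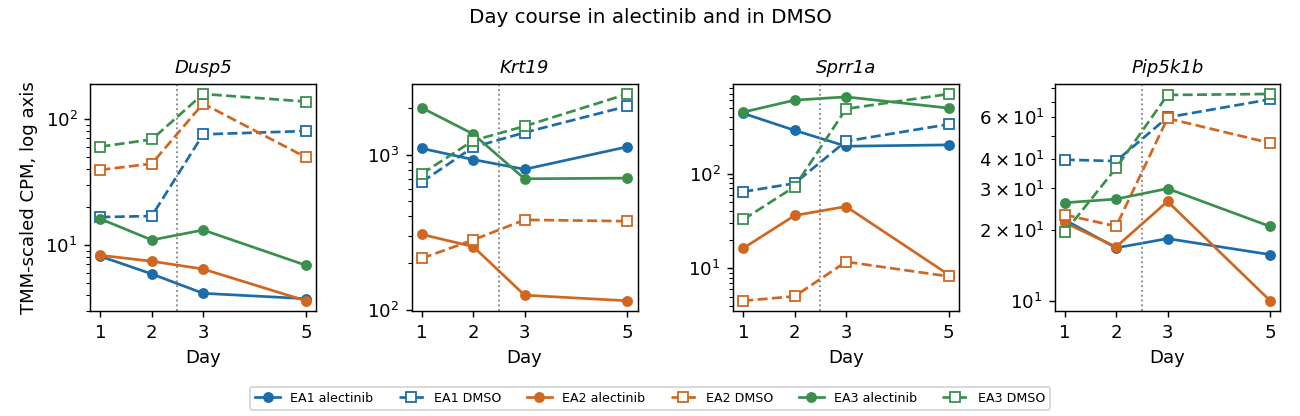
TMM-scaled CPM (vertical axes, log scale) against day (horizontal axes) for 4 genes whose change with time differed between alectinib (filled circles, solid lines) and DMSO (open squares, dashed lines), 1 point per library, coloured by line. In Dusp5 the late DMSO points lie above the early ones in all 3 lines while the alectinib points do not rise.

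The groups described above can be set beside their change with time in DMSO, from libraries of the same lines and days. The median log2 fold change of the 17 clock genes, late against early, was 1.09 in DMSO and 0.73 in alectinib, and the alectinib minus DMSO term was below 0 for 13 of them. The median was -1.09 in DMSO for DNA replication (-0.40 in alectinib) and -1.21 for mitosis (-0.52), with the term above 0 for 27 of 28 and 24 of 24 genes. Thus the medians of these 3 lists had the same sign in DMSO and were larger in size there than in drug. For collagen and matrix genes the median was 0.49 in DMSO and 0.78 in alectinib, with the term above 0 for 19 of 30, and for fibroblast markers it was -0.43 and 1.48. For the epithelial markers it was 0.23 in DMSO and -0.81 in alectinib. Larger medians in DMSO than in alectinib were also found for the FOXO and PI3K-off list (0.58 and 0.23, with the term below 0 for 18 of 23) and MAPK output (0.59 and 0.22, below 0 for 14 of 21). The same order held for mesenchymal transition (0.54 and 0.27, 9 of 15), chemokines and cytokines (0.48 and 0.34, 15 of 27), MHC class I presentation (0.21 and 0.04, 11 of 17) and receptor tyrosine kinases and ligands (0.30 and 0.25, 16 of 31). The medians were 0.43 in DMSO and 0.73 in alectinib for interferon-stimulated genes and 0.08 and 0.88 for complement. They were 0.05 and 0.07 for fatty acid genes, -0.44 and -0.33 for ribosome biogenesis and -0.22 and -0.28 for heat shock. Over all genes tested in both, the medians were 0.04 and -0.01, and the term was above 0 for 7340 of 14458 genes.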

How the data were processed

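The authors made stranded mRNA libraries, trimmed adapters with bbduk, checked reads with FastQC, aligned them to mm10 with STAR and counted reads per gene with its counter; the annotation release and the strand column used are not given in the sources used here. The deposited values are raw counts for 55415 rows. The 24 rows that name no gene (0.167% to 0.201% of counts in the alectinib libraries) were left out. Samples were grouped by the line, treatment and day of their labels. Genes were kept with the filterByExpr rule of edgeR 4.0.16 (minimum count 10) over the 6 line and phase groups, scaled by TMM and tested by the quasi-likelihood test with robust dispersions, Benjamini-Hochberg adjustment and a threshold of 0.05, in R 4.3.3. Models held line and late, or a late effect per line, or, over 24 libraries, each line and day as a block with an alectinib effect per line and an alectinib by late term. A term for library kind was added after seeing the data, the kinds being parted at 100 CPM for mt-Co2, mt-Co3 and mt-Atp6. DESeq2 1.42.0, other scalings and filters, and omission of single libraries and lines were alternatives. CPM values are TMM-scaled and not corrected for length, so levels are compared within a gene only, and log2 CPM used a prior count of 2.

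Named genes were protein-coding, with clone and mitochondrial symbols left out. They were the 12 largest rises and falls past the threshold with the same sign in 3 of 3 lines and a mean log2 CPM of at least 3, up to 4 each way per line, the 6 smallest p-values for the difference between lines, up to 6 each way against DMSO, 9 genes that the study itself followed, and for each list up to 4 members past the threshold or the one with the smallest p. The rule was applied to the fits with library kind too. Members, lists and tests were chosen with earlier results of these data known. Other members of the clock list are named after their values were seen. Exonic overlap and positions come from GENCODE M21, in which 55314 of 55391 symbols matched. The tests were checked on simulated counts. Day 7, with 1 library per treatment in EA3 alone, was left out. Some items are not reported here.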

Additional observations from a re-analysis of the deposited data

Results flagged for a closer look

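3 single libraries stood apart within their group of 6 by Dixon's test, on log2 CPM values centred per line. Fstl1, the follistatin-like glycoprotein, was at -1.99 in EA3 day 1, where the other 5 early libraries lay between -0.737 and -0.157. Marcksl1, which tethers actin to the membrane, was at -0.877 in EA2 day 3, where the other late libraries lay between -0.289 and -0.127. Cxcl1, the neutrophil chemokine, was at -0.643 in EA2 day 5, where the other late libraries lay between 0.317 and 0.891. Over 38 genes 76 groups were examined in this way, and chance alone would mark about 1 in 20 groups, that is 3.8 of these.

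Lrp2 between lines and 6 named genes between treatments differed by a test of the difference itself. The late change of Lrp2 differed between EA1, EA2 and EA3, with an edgeR adjusted p of 0.0297 with library kind and 0.087 without it. In the comparison with DMSO the late change was lower in alectinib by a log2 difference of -2.109 for Dusp5 without library kind, and with library kind by -2.634 for Sprr1a, -1.716 for Krt19, -1.33 for Pip5k1b and -0.9499 for Castor2, and it was higher by 3.453 for Pdgfrb. A further gene that was called lower has a clone symbol and is not named. Without library kind the adjusted p-values were between 0.0862 and 0.0874 for Sprr1a, Krt19, Pip5k1b and Castor2 and 0.0906 for Pdgfrb.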

How the results depend on the processing

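No paired analysis was possible because the labels give no replicate numbers by which late and early libraries could be paired, and line is already a block. Alectinib and DMSO libraries of the same line and day were paired as blocks in their own comparison. Counts of called genes are given in the order lines together, lines together with library kind, EA1, EA2, EA3, difference between lines, and alectinib minus DMSO, and were 0, 151, 0, 0, 0, 0 and 1 as reported. Without a filter on low counts they were 995, 1292, 219, 812, 682, 635 and 728, and 982 of the 995 were genes that the filter keeps. DESeq2 called 416, 586, 14, 384, 128, 117 and 511. A minimum of 10 counts in every library gave 4 and 14 for lines together without and with library kind, all 24 libraries in 1 fit gave 3 and 55, and protein-coding nuclear genes alone gave 4 and 99, with 2 in EA3. A trend over log2 of the day called 72 genes, and the libraries of the low kind alone 1 and of the high kind alone 237. With library kind, leaving out a line gave 0 (EA1), 1870 (EA2) and 5 (EA3). Library kind as a term gave 2 in EA1, 3 in EA3, 1 for the difference between lines and 7 for alectinib minus DMSO, where the fit without the line and day block gave 5. Leaving out 1 library gave 0 to 206 for lines together, 11 to 1519 with library kind, 0 to 413 in EA2, 0 to 70 in EA3, 0 to 1 for the difference between lines and 0 to 6 for alectinib minus DMSO. The causes of these differences were not tested.

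The signs of 6 genes that did not pass any threshold between late and early turned under some alternatives. Dusp6 had a log2 fold change of -0.008518 without EA1, -0.1229 without EA3, -0.3293 for day 5 against day 1 and -0.6646 in the low kind alone, and between -0.0648 and 0.3863 when 1 library was left out. Etv4 had -0.7078 for day 5 against day 1 and -1.041 in the low kind alone, and between -0.3679 and 0.4606 with 1 library left out. Etv5 had -0.4759 without EA3 and -0.26 in the low kind alone, and between -0.003327 and 0.7906 with 1 library left out. Fosl1 had -0.0108 without EA3 and -0.4173 in the low kind alone, Ccl2 -0.02393 and -0.5131, and Cxcl5 -0.05767 in the low kind alone. The calls with library kind depended strongly on single libraries. Of the 151 genes, 11 (without EA1 day 5) to 151 (without EA2 day 5) kept the call, and of 40 called genes followed singly 37 lost it in at least 1 of the 12 omissions and all 40 under at least 1 other alternative, none turning sign. Dusp5 lost its call in 12 of 24 omissions. No median over the lines together of a gene list given for alectinib changed sign under DESeq2 size factors, library size alone or library kind. The medians within single lines and in DMSO were not recomputed. With 1 library left out, the alectinib medians of MHC class I presentation (3 omissions) and of the mitochondrial-encoded genes (1 omission) changed sign. Depth was between 5780062 and 11732401 counts, so that genes under about 1 CPM rest on few counts.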

Other observations

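Several groups of stress and nutrient genes have not been described above, and no member of them passed the adjusted threshold with or without library kind. At an unadjusted p under 0.05 without library kind, 8.04% of all genes tested were higher late and 7.46% lower, beside which the counts below stand. Of 21 tested genes of the hypoxia response 7 were higher and 0 lower at an unadjusted p under 0.05 without library kind, 20 had a log2 fold change above 0 and the median was 0.47, which was 0.17 without EA3 day 5. Vegfa, the endothelial growth factor, was at 147 and 216 CPM early and 452 and 226 CPM late in EA1, 132 and 81.1 and then 213 and 94.6 CPM in EA2, and 139.9 and 201 and then 529.8 and 395 CPM in EA3. Its log2 fold change was 0.96 ± 0.27 (SE), adjusted p = 0.186. In each line day 3 was its highest day. In DMSO the median of the 21 genes was 1.13, and the alectinib minus DMSO term was below 0 for all 21. Of 30 tested genes of the ATF4 and amino acid response 9 were higher and 0 lower, with a median of 0.30 in alectinib (0.15 without EA2 day 1 and 0.18 without EA2 day 3) and 0.88 in DMSO. The per-line medians were EA1 -0.05, EA2 0.88 and EA3 0.14. Stc2, a secreted glycoprotein induced by endoplasmic reticulum stress, had the smallest p of that list (1.73 ± 0.44 SE, adjusted p = 0.176).

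Of 32 tested lysosome and autophagy genes 5 were higher and 0 lower at an unadjusted p under 0.05, 29 were above 0 and the median was 0.19. Hexa, a lysosomal hexosaminidase, had the smallest p, with a log2 fold change of 1.02 ± 0.31 (SE), adjusted p = 0.206, and was higher on both late days than on both early days in 3 of 3 lines. Of 10 tested replication-dependent histone genes 2 were higher and 0 lower, with a median of 0.55 (0.31 without EA1 day 1), while all tested genes of DNA replication were below 0. The mitochondrial-encoded genes, 13 in number, had a median of -0.36 and per-line medians of EA1 0.13, EA2 -0.82 and EA3 0.05, and the median with library kind in the fit was -0.16. It turned to 0.09 without EA2 day 2 and was -0.25 without EA2 day 1, -0.17 without EA2 day 3, -0.18 without EA2 day 5 and -0.22 without EA3 day 1.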
